A study of Homo sapiens with 3 samples.

Results

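The replication-dependent histone genes encode the H1, H2A, H2B, H3 and H4 proteins that package newly copied DNA. They were taken by name, as every gene whose symbol starts with HIST1H, HIST2H, HIST3H or HIST4H, which gave 73 of the 26485 genes in the count table. The study knocked down PRMT6, an enzyme that methylates arginines on histone tails and other proteins, in HEC1B, an established human endometrial cancer cell line. Total RNA taken at 48 h was sequenced in 3 libraries. The control was 1 library made with the siRNA labelled siNC and a genotype labelled WT, and the knockdown group was 2 libraries made with different siRNAs against PRMT6, labelled siPRMT6-1 and siPRMT6-2. All 3 came from the same cell line, and the labels name no other allele or agent.

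Replication-dependent histone genes lie in clusters and are transcribed together as cells copy their DNA. Their mRNAs carry no introns and, in dividing cells, end without a poly(A) tail, just after a short stem-loop that is bound by the stem-loop binding protein SLBP. The NPAT protein drives their transcription, the U7 small nuclear RNP guides the cleavage of the 3′ end, and the mRNAs are destroyed when DNA synthesis stops. Some of these genes can also give polyadenylated transcripts that extend past the stem-loop. H2A and H2B genes often stand head to head and share the DNA between them as a promoter.

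The stem-loop is shown for 8 of these genes because it is the element that sets them apart from other mRNAs and because their counts, given further on, lay on both sides of the control. It was looked for in the GENCODE release 29 transcripts on GRCh38, within 200 bases after the stop codon and no more than 50 bases outside the gene model of the count table. The pattern was a perfect 6-base inverted repeat starting with GG around a 4-base loop starting with TTT. A stem-loop of this pattern was found in 30 of the 73 genes, 22 to 67 bases after the stop codon. In the other 43 the search found none, which says nothing of what the RNA holds outside the stretch searched or beyond the annotated transcript. The 43 include 3 genes without a coding transcript, which were not searched. For most of the 43, the GENCODE transcript held no bases after the stop codon, so there was nothing to search. Capitals mark the stem and loop, and lower case the 5 bases on either side.
HIST1H2AC: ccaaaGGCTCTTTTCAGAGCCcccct
HIST3H2A: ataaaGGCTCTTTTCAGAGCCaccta
HIST2H2BE: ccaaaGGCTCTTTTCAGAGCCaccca
HIST3H2BB: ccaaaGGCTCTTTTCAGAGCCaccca
HIST1H3H: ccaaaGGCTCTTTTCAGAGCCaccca
HIST1H4E: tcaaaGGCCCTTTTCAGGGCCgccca
HIST1H4J: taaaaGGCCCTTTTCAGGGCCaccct
HIST1H4I: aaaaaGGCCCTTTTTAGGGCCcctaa
These sites lie at chr6:26124664-26124689 (plus strand, HIST1H2AC), chr1:228457364-228457389 (minus, HIST3H2A), chr1:149886183-149886208 (minus, HIST2H2BE), chr1:228458533-228458558 (plus, HIST3H2BB), chr6:27810511-27810536 (plus, HIST1H3H), chr6:26204996-26205021 (plus, HIST1H4E), chr6:27824454-27824479 (plus, HIST1H4J) and chr6:27139649-27139674 (plus, HIST1H4I), each in the 3′ untranslated part of the transcript. The stem arm was GGCTCT in all stem-loops found in H2A (6), H2B (11) and H3 (5) genes and GGCCCT in all 8 found in H4 genes. HIST2H2BE, HIST3H2BB and HIST1H3H carried the same letters throughout.

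The libraries were shallow, at 410916, 381628 and 362080 counts in the order siNC, siPRMT6-1, siPRMT6-2, which holds for every trio of counts given here. Levels are given in CPM, counts scaled to library sizes that were adjusted by the trimmed mean of M-values (TMM). The limit that a count of 0 allows, 3 counts, equalled 7.78, 8.09 and 9.09 CPM. PRMT6 itself had 25, 4 and 7 counts, or 0.167 of the siNC level for siPRMT6-1 (95% interval 0.0421 to 0.482) and 0.327 of it for siPRMT6-2 (0.120 to 0.778). The siPRMT6-2 library stood apart: 40 interferon-stimulated genes, listed after earlier results of these data were known, summed to 242, 345 and 3053 counts. Of the markers of HEC1B, KRT8 (1329, 681 and 770 counts) and PAX8 (158, 117 and 227) were present, KRT19, CDH1 and PGR were at 0 in all 3 libraries, and ESR1 had 1 count in 1 library. The leukocyte list summed to 0, 1 and 2 counts. The fibroblast list summed to 531, 360 and 372 counts, nearly all from COL1A1, with COL1A2, COL3A1, DCN and LUM at 0, and the endothelial list to 19, 18 and 6.

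The strand of the counts limits every count given here, those of PRMT6, the interferon-stimulated genes and the markers above included. The kit was stranded, the authors counted with strand setting 1, and of 142 pairs of a gene with an antisense-named gene over its exons, 118 had most of their siNC counts on the latter. Whether the reads on a histone gene came from its mRNA or from the opposite strand cannot be told from the deposited counts. Of the histone genes, HIST2H2BF shared exon bases with an opposite-strand gene of the table, FCGR1A. In the GENCODE models, HIST1H2BK also overlapped HIST1H4I, HIST1H2AK overlapped HIST1H2BN, and HIST2H2AB overlapped BOLA1, each on the opposite strand. HIST1H3D shared an exon with HIST1H2AD on the same strand, so a read there was added to both.

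Of the 73 genes, 3 pairs had the same gene model under both names (HIST2H4A and HIST2H4B, HIST2H3A and HIST2H3C, HIST2H2AA3 and HIST2H2AA4) and each pair was counted once, which left 70. Of these, 60 had at least 1 count and 10 were at 0 in all libraries: HIST1H1A, HIST1H1T, HIST1H2AA, HIST1H2APS1, HIST1H2BA, HIST2H2BA, HIST2H2BC, HIST1H4F, HIST1H4G and HIST1H4L. The filter on low counts passed 49. HIST3H2A, HIST3H2BB, HIST1H3J, HIST1H4J, HIST1H4K and HIST4H4 passed it through the siPRMT6-2 library alone, so these 6 had to be higher there, and tallies are also given without them.

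H2B and H3 genes had more counts with siPRMT6-2 than in siNC, and H2A and H4 genes had fewer with siPRMT6-1. Each ratio compares CPM on TMM library sizes between 1 library and 1 library, and its 95% interval, an exact binomial interval, covers counting error only and not the spread between cultures. H2B genes summed to 512, 448 and 769 counts. The H2B ratio to siNC was 0.911 (0.800 to 1.04) with siPRMT6-1 and 1.76 (1.57 to 1.97) with siPRMT6-2, and the siPRMT6-2 library was at 1.93 times the siPRMT6-1 library (1.71 to 2.17). H3 genes summed to 250, 215 and 323 counts, with ratios of 0.895 (0.742 to 1.08) and 1.51 (1.28 to 1.79). The H2B and H3 sums of siPRMT6-2 were thus above both other libraries, which differed by less than counting error. Without HIST1H2BJ and HIST2H2BE the H2B ratio with siPRMT6-2 was 1.47 (1.30 to 1.67). Without HIST1H3H the H3 ratio was 1.23 (1.02 to 1.49). Both exclusions were chosen after the values were seen.

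The H4 sum was 335, 233 and 259 counts, giving ratios of 0.724 (0.610 to 0.858) and 0.904 (0.766 to 1.07). HIST1H4J and HIST1H4K, which have the same coding sequence, together had 10 counts in siNC and 59 in siPRMT6-2. In the remaining H4 genes, also a choice made after the values were seen, the ratio was 0.727 (0.611 to 0.864) with siPRMT6-1 and 0.719 (0.600 to 0.861) with siPRMT6-2. H2A genes summed to 584, 455 and 462 counts, with ratios of 0.811 (0.716 to 0.918) and 0.925 (0.817 to 1.05). H1 genes summed to 439, 381 and 354 counts, with both ratios within counting error, at 0.903 (0.785 to 1.04) and 0.943 (0.817 to 1.09). Over all types the sums were 2120, 1732 and 2167 counts, which is 0.850 (0.798 to 0.906) of siNC with siPRMT6-1 and 1.20 (1.13 to 1.27) with siPRMT6-2. In this total the 2 siRNAs lay on opposite sides of the shared control, as in the H2B and H3 sums. The H1, H2A and H4 ratios were under 1 with both. Over all genes tested the summed counts were 0.961 of siNC with siPRMT6-1 and 1.02 with siPRMT6-2. The share of H2B genes in all histone counts was 24.2% in siNC, 25.9% with siPRMT6-1 and 35.5% with siPRMT6-2. In bulk RNA, fewer cells making histone mRNA and less of it per cell cannot be told apart.

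**Figure D1:**
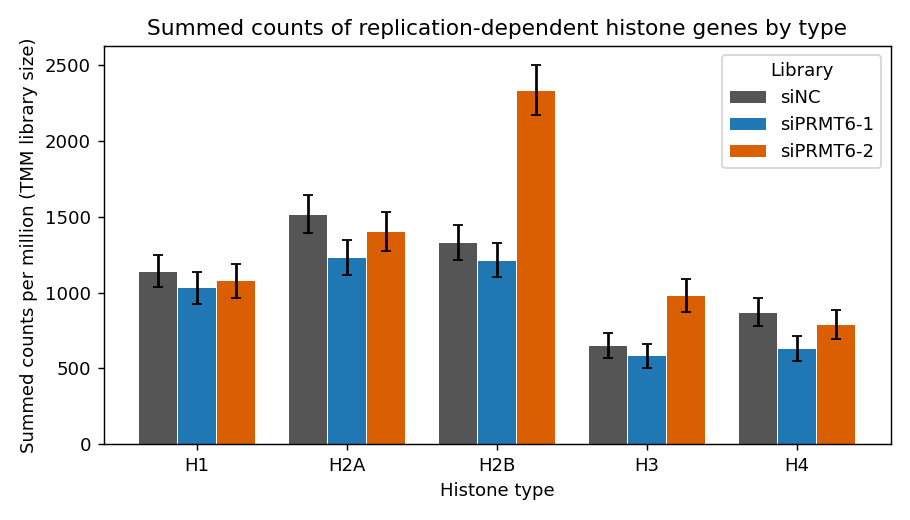
Summed CPM (y axis, TMM library sizes) of the replication-dependent histone genes of each type (x axis) in the siNC, siPRMT6-1 and siPRMT6-2 libraries, with exact Poisson 95% intervals of the sums as bars. The siPRMT6-2 library stands above both others for H2B (2330 against 1327 and 1208) and H3 (979 against 648 and 580), and siPRMT6-1 is the lowest for H4 (629).

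No histone gene passed the test across the libraries. The edgeR quasi-likelihood test of both knockdown libraries against siNC called 0 of 6803 genes at an adjusted p under 0.05 (0% of genes tested), and 0 of the 49 histone genes, with adjusted p = 0.9999 as the lowest value. At an unadjusted p under 0.05 the edgeR test had 138 genes higher (2.03%) and 48 lower (0.706%), among them 1 histone gene, HIST3H2BB, on the higher side. DESeq2 also called 0 genes, with 12 at an unadjusted p under 0.05 and no histone gene among them. The older kind of edgeR fit called 32 genes and no histone gene. With 1 control the spread rests on the difference between the knockdown libraries. The labels name no separate cultures, and the p-values therefore reflect only how these 3 libraries vary, which may be technical.

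Folds were then counted library against library, with no test. With siPRMT6-2, 13 of the 49 histone genes (26.5%) were at least 2-fold above siNC on the log2 CPM scale with a prior count of 2, beside 8.16% of all genes tested, and 0 were at least 2-fold below, beside 5.38%. With siPRMT6-1, 0 were 2-fold above, beside 4.89%, and HIST1H2AM and HIST1H4I were 2-fold below (4.08%, beside 4.38% of all genes). Among genes with at least 30 counts over the 3 libraries, 10 of 45 histone genes (22.2%) were 2-fold above siNC with siPRMT6-2, beside 5.94% of 5593 genes. Without the 6 genes that passed the filter through that library alone, 8 of 43 (18.6%) were 2-fold above. The interval of the ratio lay above 1 for 16 histone genes with siPRMT6-2 (32.7%, beside 9.73%), or 11 of 43 (25.6%) without those 6, and below 1 for 5 (10.2%, beside 8.82%). With siPRMT6-1 it lay above 1 for 0 (beside 5.89%) and below 1 for 5 (10.2%, beside 7.14%). Between the knockdown libraries, which leaves out the control, siPRMT6-2 was above siPRMT6-1 for 19 histone genes (38.8%, beside 11.3%), or 13 of 43 (30.2%) without the same 6, and below for 3 (6.12%, beside 9.61%). The median log2 difference from siNC over the 49 was −0.21 with siPRMT6-1 and 0.21 with siPRMT6-2, beside 0.01 and 0.01 over all genes. The median of their mean over both knockdown libraries, −0.04, thus turned on which library was left out.

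**Figure D2:**
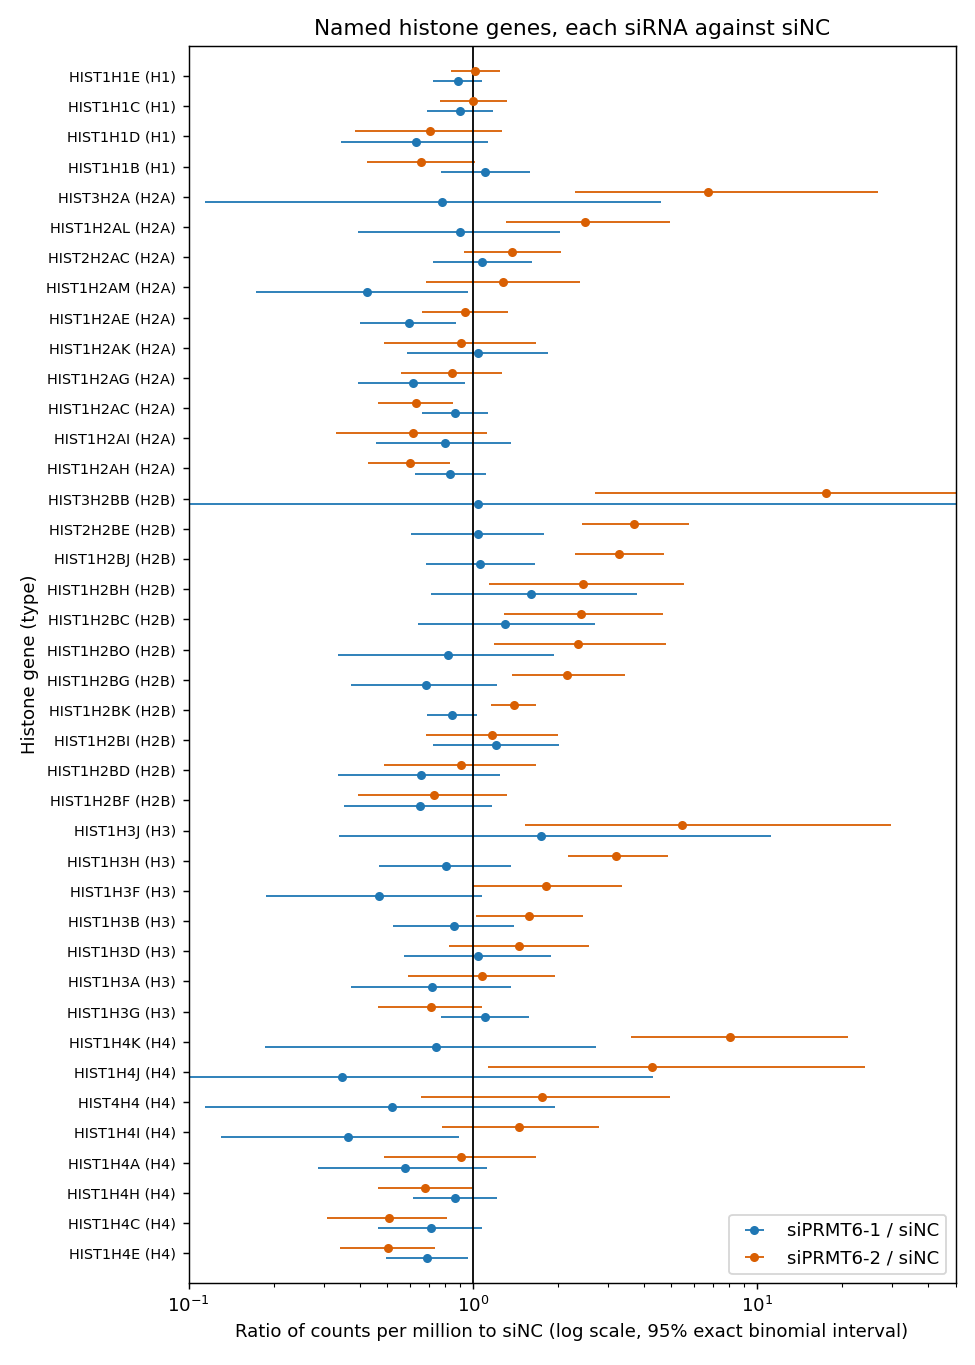
Ratio of CPM to siNC (x axis, log scale) for 40 named histone genes (y axis, grouped by type), with siPRMT6-1 in blue, siPRMT6-2 in orange and exact binomial 95% intervals as bars. A bar that meets the edge of the axis runs beyond it. H2B and H3 genes hold most of the orange points right of 1, such as HIST2H2BE at 3.70 and HIST1H3H at 3.21, while HIST1H4E and HIST1H4C lie left of 1 with both siRNAs.

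H2B pairs with H2A in the nucleosome. Of the 14 H2B genes tested, 8 had an interval above 1 with siPRMT6-2 and 0 below, beside 9.73% and 8.82% of all genes tested. Without HIST3H2BB, which passed the filter through siPRMT6-2 alone, it was 7 of 13. HIST1H2BJ had 44, 45 and 123 counts, a ratio to siNC of 1.06 (0.687 to 1.65) and 3.27 (2.30 to 4.72). HIST2H2BE had 30, 30 and 95 counts, with ratios of 1.04 (0.606 to 1.79) and 3.70 (2.43 to 5.78). In both genes the control and siPRMT6-1 were alike in counts and siPRMT6-2 was apart. HIST1H2BK, the most abundant H2B gene here, had 222, 180 and 265 counts, with ratios of 0.844 (0.689 to 1.03) and 1.40 (1.16 to 1.68). Per kilobase of its gene model HIST1H2BK stood at 686 CPM in siNC, 579 in siPRMT6-1 and 957 in siPRMT6-2, the highest of the histone genes in siPRMT6-2. The edgeR log2 fold change over both siRNAs was 1.11 (SE 0.60, adjusted p = 0.9999) for HIST1H2BJ and 1.24 (SE 0.66, adjusted p = 0.9999) for HIST2H2BE.

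H2B genes with fewer counts were also among those higher with siPRMT6-2. HIST1H2BG had 32, 21 and 59 counts, a siPRMT6-2 ratio of 2.16 (1.38 to 3.43). HIST1H2BC had 16, 20 and 33 counts, at 2.41 (1.29 to 4.69). HIST1H2BO had 14, 11 and 28 counts, at 2.34 (1.19 to 4.81). For these 3 genes siPRMT6-2 was also above siPRMT6-1 past counting error. HIST1H2BH had 11, 17 and 23 counts, 1.61 (0.711 to 3.80) with siPRMT6-1 and 2.44 (1.15 to 5.55) with siPRMT6-2, so the siPRMT6-1 library lay between. HIST3H2BB had 1, 1 and 15 counts, a siPRMT6-2 ratio of 17.5 (2.698 to 738). The edgeR log2 fold change of HIST3H2BB was 3.01 (SE 1.34, adjusted p = 0.9999). HIST1H2BI (31, 36 and 31 counts), HIST1H2BF (32, 20 and 20) and HIST1H2BD (27, 17 and 21) did not leave the range of counting error with either siRNA. HIST1H2BL, HIST2H2BF and HIST1H2BN had siPRMT6-2 ratios of 1.08 to 1.38 with intervals that held 1, and HIST1H2BM, HIST1H2BB and HIST1H2BE had too few counts to be tested.

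The promoters of HIST1H2BJ and HIST2H2BE are printed because these genes differed most clearly among the H2B genes of more than a few counts. Each run is the 120 bases before the RefSeq start site on GRCh38.p14, read 5′ to 3′ on the gene's strand. Capitals mark ATTTGCAT (the octamer bound by POU2F1, known from H2B promoters), TATAAA and CCAAT, each searched on both strands, where TATAAA can overlap its own reverse.
HIST1H2BJ: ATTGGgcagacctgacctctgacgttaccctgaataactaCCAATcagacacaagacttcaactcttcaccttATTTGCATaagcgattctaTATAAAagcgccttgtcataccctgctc
HIST2H2BE: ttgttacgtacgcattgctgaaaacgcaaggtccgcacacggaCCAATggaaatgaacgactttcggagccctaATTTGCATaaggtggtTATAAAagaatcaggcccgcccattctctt
The runs lie at chr6:27132796-27132915 (minus strand) and chr1:149886683-149886802 (minus strand). RefSeq promoter windows, from 250 bases before to 50 after the start, were matched to 65 of the 73 genes. The octamer was in 14 of 18 H2B promoters and 11 of 16 H2A promoters, beside 1.77% of 35116 RefSeq promoters, and in 0 of the H1, H3 and H4 promoters. CCAAT was in all H1, H2A, H2B and H3 promoters matched and in 3 of 13 H4 promoters, beside 34.6% of all. TATAAA was in 12 of 18 H2B, 12 of 16 H2A, 9 of 12 H3, 7 of 13 H4 and 3 of 6 H1 promoters, beside 11.5% of all. In 8 H2B promoters the octamer ended 37 to 41 bases before the start. The 8 genes had siPRMT6-2 ratios from 1.17 (HIST1H2BI and HIST2H2BF) to 3.70 (HIST2H2BE) and together 392, 348 and 619 counts, a ratio of 1.85 (1.62 to 2.10). The other 12 H2B genes together had 120, 100 and 150 counts, a ratio of 1.46 (1.14 to 1.87). These intervals overlap, the split was made after the values were seen, and a motif match is a description of the letters, not of binding.

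H2A genes lay on both sides of siNC. Of 13 tested, 2 had an interval above 1 with siPRMT6-2 and 2 below, beside 9.73% and 8.82% of all genes tested. Without HIST3H2A, which passed the filter through siPRMT6-2 alone, it was 1 above and 2 below of 12. Counts this small cannot be set apart from those shares. HIST1H2AC, the most abundant H2A gene here, had 126, 105 and 68 counts, with ratios of 0.867 (0.663 to 1.13) and 0.631 (0.463 to 0.854). HIST1H2AH had 111, 89 and 57 counts, with ratios of 0.834 (0.624 to 1.11) and 0.600 (0.428 to 0.833). In both genes siNC was the highest library and siPRMT6-2 the lowest. With siPRMT6-1, HIST1H2AE (77, 44 and 62 counts) had a ratio of 0.595 (0.401 to 0.872), HIST1H2AG (61, 36 and 44) of 0.614 (0.395 to 0.942) and HIST1H2AM (22, 9 and 24) of 0.426 (0.173 to 0.962). These 3 genes were within counting error of siNC with siPRMT6-2. Of the 50-base stretches of the annotated transcript, 86.3% in HIST1H2AM also occurred in another histone gene. The share was 83.7% in HIST1H2AJ and 62.3% in HIST1H2AI. Multi-mapped reads were not counted, so the counts of these genes rest on the reads that could be placed. On the higher side with siPRMT6-2 stood HIST1H2AL (15, 13 and 32 counts, ratio 2.49, 1.31 to 4.96) and HIST3H2A (4, 3 and 23 counts, ratio 6.72, 2.30 to 26.7). HIST2H2AC (51, 53 and 60), HIST1H2AI (34, 26 and 18) and HIST1H2AK (27, 27 and 21) had intervals that held 1 with both siRNAs, as did HIST1H2AD, HIST2H2AB and HIST1H2AB.

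Within head-to-head pairs, where H2A and H2B share the DNA between their starts, H2B stood higher than H2A relative to siNC in most pairs. The table held 12 such pairs with starts under 1000 bases apart, and 11 had counts in both genes. With siPRMT6-2 the log2 difference from siNC was greater for H2B than for H2A in 9 of 11 pairs, with a median gap of 1.06. With siPRMT6-1 it was greater in 8 of 11, with a median gap of 0.22 (log2), and both siRNAs share the control. Between the knockdown libraries, which leaves out the control, it was greater in 9 of 11, with a median gap of 0.78. The clearest pairs were HIST1H2AG with HIST1H2BJ (ratios 0.843 and 3.27) and HIST1H2AC with HIST1H2BC (0.631 and 2.41). The exceptions with siPRMT6-2 were HIST1H2AD with HIST1H2BF and HIST1H2AJ with HIST1H2BM. In the HIST3 pair both genes were higher, but both passed the filter through siPRMT6-2 alone. That pair is among the 9, as is HIST1H2AK with HIST1H2BN (ratios 0.909 and 1.08, with overlapping intervals). With siPRMT6-1, HIST1H2AH and HIST1H2BK were nearly equal, at −0.26 and −0.24 (log2). The tallies of pairs go by direction alone and not by the size of the gap. They include HIST1H2AM, HIST1H2AJ and HIST1H2AI, whose counts are limited by sequence shared with other histone genes. Summed over the pairs, H2A had 535, 413 and 409 counts and H2B 425, 360 and 675, so the larger sum passed from H2A to H2B in siPRMT6-2.

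**Figure D3:**
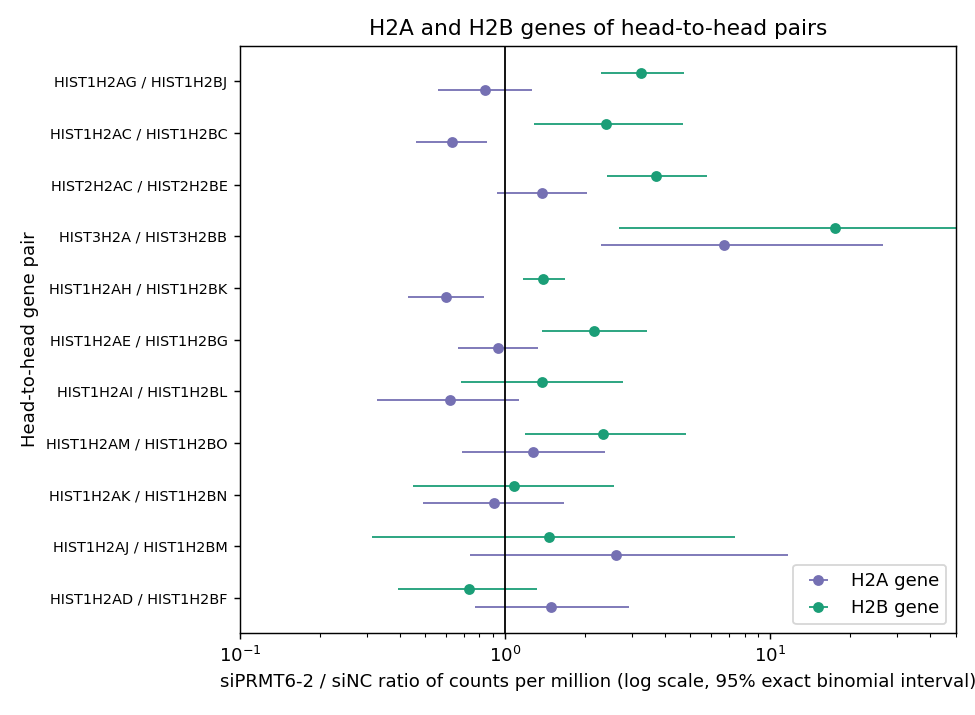
Ratio of CPM in siPRMT6-2 to siNC (x axis, log scale) for the H2A gene (purple) and the H2B gene (green) of 11 head-to-head pairs (y axis), with exact binomial 95% intervals as bars. A bar that meets the edge runs beyond it. The green point lies right of the purple point in 9 pairs, and the lowest 2 pairs are the exceptions.

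H3 pairs with H4 at the core of the nucleosome. Of 9 H3 genes tested, 4 had an interval above 1 with siPRMT6-2 and 0 below, beside the same 9.73% and 8.82% of all genes. Without HIST1H3J, which passed the filter through siPRMT6-2 alone, it was 3 of 8. HIST1H3H had 35, 27 and 96 counts, with ratios of 0.803 (0.467 to 1.37) and 3.21 (2.16 to 4.87). HIST1H3B had 40, 33 and 54 counts, at 0.859 (0.525 to 1.40) and 1.58 (1.03 to 2.44). HIST1H3F had 20, 9 and 31 counts and HIST1H3J 3, 5 and 14, with siPRMT6-2 ratios of 1.81 (1.00 to 3.35) and 5.46 (1.52 to 29.6). HIST1H3H thus had the highest ratio of the H3 genes with at least 30 counts. HIST1H3G, the H3 gene with the most counts (64, 68 and 39), was 0.712 (0.466 to 1.08) of siNC with siPRMT6-2 and 0.644 (0.423 to 0.969) of siPRMT6-1. HIST1H3D (25, 25 and 31 counts) and HIST1H3A (26, 18 and 24) were within counting error with both siRNAs.

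H4 is the most conserved of the core histones, and its genes encode almost the same protein. Of 9 H4 genes tested, 2 had an interval above 1 with siPRMT6-2 and 3 below. Without HIST1H4J, HIST1H4K and HIST4H4, which passed the filter through siPRMT6-2 alone, it was 0 above and 3 below of 6, beside 9.73% and 8.82% of all genes. HIST1H4E had 95, 63 and 41 counts, with ratios of 0.690 (0.494 to 0.959) and 0.505 (0.341 to 0.735), below siNC with both siRNAs past counting error. HIST1H4C had 60, 41 and 26 counts, at 0.711 (0.466 to 1.08) and 0.507 (0.307 to 0.815). HIST1H4H had 79, 66 and 46 counts, at 0.869 (0.617 to 1.22) and 0.681 (0.463 to 0.991). All 3 were highest in siNC and lowest in siPRMT6-2. The edgeR log2 fold change over both siRNAs was −0.74 (SE 0.44, adjusted p = 0.9999) for HIST1H4E and −0.71 (SE 0.47, adjusted p = 0.9999) for HIST1H4C. HIST1H4I had 20, 7 and 25 counts, with ratios of 0.364 (0.130 to 0.897) and 1.46 (0.779 to 2.77). HIST1H4A had 27, 15 and 21 counts and HIST4H4 8, 4 and 12, both within counting error of siNC with either siRNA.

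HIST1H4K had 7, 5 and 48 counts, a siPRMT6-2 ratio of 8.02 (3.61 to 21.0), and HIST1H4J had 3, 1 and 11 counts, a ratio of 4.29 (1.13 to 23.9). These genes have the same coding sequence, which limits both counts because multi-mapped reads were not counted. Of the 50-base stretches of the annotated transcript, 81.2% in HIST1H4J and 100% in HIST1H4K also occurred in another histone gene. The counts thus rest on the reads that could be placed, and summing the genes does not restore the others. Their sum was 10, 6 and 59 counts, a siPRMT6-2 ratio of 6.90 (3.50 to 15.1). The edgeR log2 fold change of HIST1H4K was 2.09 (SE 1.04, adjusted p = 0.9999). Their promoters are printed because these were the H4 genes that stood higher with siPRMT6-2, with HIST1H4E as an abundant H4 gene that stood lower. Capitals mark the same 3 motifs as above.
HIST1H4J: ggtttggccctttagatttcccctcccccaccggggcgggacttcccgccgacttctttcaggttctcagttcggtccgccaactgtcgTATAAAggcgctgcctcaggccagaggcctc
HIST1H4K: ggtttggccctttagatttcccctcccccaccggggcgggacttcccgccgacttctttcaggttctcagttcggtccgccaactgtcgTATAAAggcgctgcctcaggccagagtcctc
HIST1H4E: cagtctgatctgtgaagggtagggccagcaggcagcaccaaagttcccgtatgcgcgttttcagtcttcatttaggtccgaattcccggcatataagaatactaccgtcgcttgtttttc
The runs lie at chr6:27823972-27824091 (plus strand), chr6:27831561-27831680 (minus strand) and chr6:26204490-26204609 (plus strand). HIST1H4J and HIST1H4K had 119 of these 120 bases in common, and 245 of the 250 bases before the start. HIST1H4E had none of the 3 motifs in its window.

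H1, the linker histone, came from 4 genes with counts. HIST1H1E had 223, 190 and 195 counts and, per kilobase of gene model, the highest level of all histone genes in siNC, at 736 CPM. HIST1H1C had 121, 105 and 104 counts. Both were within counting error of siNC with each siRNA, as was HIST1H1D (33, 20 and 20 counts). HIST1H1B had 62, 66 and 35 counts, a ratio of 0.660 (0.423 to 1.02) to siNC and of 0.596 (0.384 to 0.911) to siPRMT6-1. No H1 gene was higher with siPRMT6-2 past counting error.

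The balance also differed by place. In the group of 32 HIST1 genes on chromosome 6 that holds HIST1H3A to HIST1H4H, the counts were 1231, 988 and 1000, a siPRMT6-2 ratio of 0.950 (0.873 to 1.03). The next 5 genes, HIST1H2BJ to HIST1H2AH, had 458, 357 and 514 counts, at 1.31 (1.15 to 1.49). The last 16 had 274, 245 and 385 counts, at 1.64 (1.40 to 1.93). The 3 HIST1 genes before these groups were at 0. The 10 HIST2 genes on chromosome 1 had 143, 134 and 217 counts, at 1.77 (1.43 to 2.21), and the 3 HIST3 genes 6, 4 and 39, at 7.60 (3.19 to 22.0). With siPRMT6-1 the same sums had ratios of 0.835, 0.811, 0.931, 0.975 and 0.694. Single genes weighed on these sums. HIST1H2BJ gave 44, 45 and 123 of the counts of the group HIST1H2BJ to HIST1H2AH. HIST1H3H gave 35, 27 and 96 of the counts of the last 16 HIST1 genes. HIST2H2BE gave 30, 30 and 95 of the HIST2 counts. The HIST3 counts came nearly all from HIST3H2A (4, 3 and 23) and HIST3H2BB (1, 1 and 15). Those genes passed the filter through siPRMT6-2 alone, as did HIST1H4J, HIST1H4K and HIST1H3J among the last 16 HIST1 genes. The genes of a group differ in type, so place and type were not separated.

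**Figure D4:**
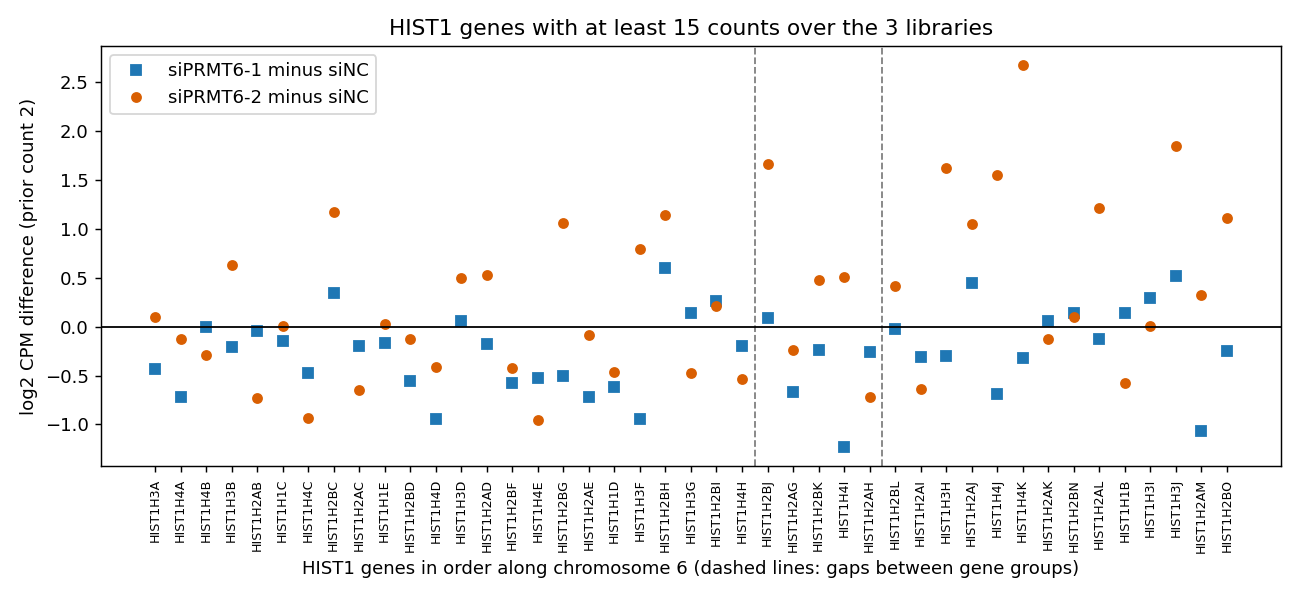
log2 CPM difference from siNC (y axis, prior count 2) for the HIST1 genes with at least 15 counts, in order along chromosome 6 (x axis), with siPRMT6-1 as blue squares and siPRMT6-2 as orange circles. The dashed lines mark gaps between gene groups. Higher orange points are denser right of the first line, with HIST1H4K, HIST1H3J, HIST1H2BJ and HIST1H3H at the top, and genes below 0 occur in every group. HIST1H4K, HIST1H3J and HIST1H4J passed the filter on low counts through siPRMT6-2 alone, so their orange points had to be high.

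Extended 3′ ends were examined because some of these genes also give polyadenylated RNA. The 23 genes whose longest GENCODE 3′ untranslated part was at least 200 bases had 723, 590 and 822 counts, a siPRMT6-2 ratio of 1.33 (1.20 to 1.47). The 44 with a shorter one or none had 1397, 1142 and 1345, at 1.13 (1.04 to 1.21). For most of these 44, GENCODE held no 3′ untranslated part at all. The split is thus largely one of annotation, and the shorter group is not known to have shorter 3′ ends. With siPRMT6-1 both groups were at 0.849 and 0.851. Within H2B the ratios with siPRMT6-2 were 2.19 (1.86 to 2.58) for the longer and 1.42 (1.21 to 1.67) for the shorter, while within H4 they were 0.749 (0.597 to 0.937) and 1.15 (0.894 to 1.48). HIST1H2BK gave 222, 180 and 265 of the 288, 245 and 350 counts of the shorter H2B group. HIST1H2BK is one of the genes without an annotated 3′ untranslated part, though its gene model in the count table has 2 exons over chr6:27138293-27146858. The shorter H4 group holds HIST1H4J and HIST1H4K, and without them it had 119, 81 and 68 counts, a siPRMT6-2 ratio of 0.668 (0.488 to 0.907). The form of the RNA was not measured.

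The machinery that makes, cuts and destroys histone mRNA was listed by its known roles, though with earlier results of these data known. Of the 27 genes for transcription and 3′ end processing 15 were tested and 0 were called by edgeR in either direction, with summed counts of 438, 455 and 382. Since edgeR called 0 of all 6803 genes tested, a count of 0 in this or a later list does not set that list apart. SLBP had 6, 8 and 4 counts and CASP8AP2, a partner of NPAT at histone genes, 1, 1 and 3, and neither passed the filter on low counts. NPAT had 13, 9 and 7 counts, with ratios of 0.721 (0.272 to 1.82) and 0.629 (0.213 to 1.70), within counting error. SRRT, which works with the cap-binding complex, had 90, 75 and 84 counts, and SNRPD3, an Sm protein of the U7 particle, 85, 90 and 65. SNRPB, another Sm protein, had 37, 37 and 55 counts, a siPRMT6-2 ratio of 1.74 (1.13 to 2.71). With siPRMT6-1, ZNF473 (8, 23 and 13 counts) was higher at 2.99 (1.29 to 7.74) and CPSF2 (4, 13 and 9) at 3.38 (1.045 to 14.2). With siPRMT6-2, CDK9 (14, 8 and 3 counts) was lower at 0.25 (0.046 to 0.90). Of all genes tested, 5.89% had an interval above 1 with siPRMT6-1 and 9.73% with siPRMT6-2. The shares with an interval below 1 were 7.14% and 8.82%. Of 13 mRNA decay genes 5 were tested and 0 called, with sums of 145, 136 and 131. UPF1, a helicase of histone mRNA decay, had 50, 31 and 41 counts, the kinase gene SMG1 27, 35 and 32, and EXOSC10, of the nuclear exosome, 25, 15 and 15. MTPAP had 3, 12 and 7 counts, a siPRMT6-1 ratio of 4.16 (1.12 to 23.0). Of 23 chaperone genes, whose proteins carry histones to DNA, 18 were tested and 0 called, with sums of 552, 492 and 472, led by SSRP1 (115, 113 and 95), RBBP4 (71, 63 and 55) and UBN1 (60, 52 and 41). IPO4 (46, 21 and 27 counts) was lower with siPRMT6-1, at 0.475 (0.269 to 0.812). SUPT16H (13, 16 and 24) was higher with siPRMT6-2, at 2.16 (1.06 to 4.62).

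Histones that are made outside S phase were listed for comparison. Of 18 names, 17 were in the table, 8 were tested and 0 were called by edgeR. Their sums were 360, 312 and 442 counts, a ratio of 0.902 (0.773 to 1.05) with siPRMT6-1 and 1.44 (1.25 to 1.65) with siPRMT6-2. H1F0, the linker histone of resting and differentiating cells, had 40, 28 and 141 counts. Without it the list summed to 320, 284 and 301 counts, a siPRMT6-2 ratio of 1.10 (0.936 to 1.29), within counting error, and 5 of the other 7 genes tested were below siNC. H3F3B, which encodes the replacement histone H3.3, had 172, 143 and 184 counts. Its siPRMT6-2 ratio was 1.25 (1.01 to 1.55), so H1F0 was not the only gene of the list that was higher past counting error. H2AFX, the source of the damage-marked H2A variant, had 39, 36 and 43 counts. CENPA had 11, 13 and 2 counts, a siPRMT6-2 ratio of 0.21 (0.023 to 0.97). Of the 5 genes below siNC, only CENPA had an interval that left out 1.

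S phase genes give the measure of DNA synthesis nearest to hand in the same libraries. Of 44 genes 34 were tested and 0 called by edgeR in either direction. They summed to 1318, 1159 and 1172 counts, a ratio of 0.915 (0.845 to 0.991) with siPRMT6-1, beside 0.850 for the histone genes, and of 1.04 (0.960 to 1.13) with siPRMT6-2, beside 1.20. CCNA2, the S phase cyclin, had 137, 92 and 100 counts, MCM7, of the replicative helicase, 125, 108 and 140, and TYMS, which makes thymidylate, 102, 83 and 60. The interval left out 1 for CCNA2 with siPRMT6-1 (ratio 0.699) and for MCM7 (1.31) and TYMS (0.688) with siPRMT6-2. PCNA had 38, 12 and 33 counts, at 0.329 (0.156 to 0.642) with siPRMT6-1 and 1.015 (0.617 to 1.66) with siPRMT6-2. The interferon-stimulated genes that set the siPRMT6-2 library apart had ratios of 1.48 (1.26 to 1.76) and 14.8 (12.9 to 16.9) over the whole list. Of the 32 tested, 31 were at least 2-fold higher with siPRMT6-2, beside 8.16% of all genes, but 26 of the 32 passed the filter through that library alone. Of the remaining 6, 5 were 2-fold higher. These genes were high in the same library as the H2B and H3 counts, and their part in the histone result was not tested.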

How the data were processed

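Total RNA of 3 HEC1B libraries was analysed. The authors deposited raw whole-number counts per gene, per the file headers from featureCounts 2.0.1 (2.0.10 in the submitters' processing notes) on hg38 with strand setting 1. STAR 2.7.8a aligned the reads, per the submitters' processing notes. Reads in several genes were added to each and multi-mapped reads were not counted, per the file headers. Near-identical histone genes can therefore lose reads. Columns were matched through the sample descriptions, in which siPRMT6-1 is si2 and siPRMT6-2 is si3.

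edgeR 4.0.16 in R 4.3.3 was run on all genes (TMM, filterByExpr with a minimum count of 10 and total of 15, two-sided quasi-likelihood test, Benjamini-Hochberg adjustment). DESeq2 1.42.0, other scalings, filters and prior counts were alternatives. The fit was tested on simulated data. Ratios carry exact binomial and sums exact Poisson intervals at 95%, for counting error only. Named genes were the 30 histone genes with the most counts (at least 20), those whose interval excluded 1 between any libraries, the 3 with the most counts in each pathway list, and PRMT6, SLBP, NPAT and CASP8AP2. Genes of those lists whose interval against siNC excluded 1 were also named. Members and lists were chosen with earlier results of these data known.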

Additional observations from a re-analysis of the deposited data

How the results depend on the processing

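Of the values recomputed under an alternative, 158 stayed within their counting interval, their spread or 1.5 times their count, 6 moved further and 1 whose interval excluded 1 reversed. Of 131 ratios and medians, 6 changed side, 5 of them a median or ratios whose interval held 1: without the most abundant gene, siPRMT6-2 against siNC went from 0.925 to 1.01 for H2A and from 0.904 to 1.06 for H4, and siPRMT6-2 against siPRMT6-1 from 1.04 to 0.935 for H1 (0.979 with library totals alone). The median over both siRNAs, −0.04, became 0.21 without siPRMT6-1. The older edgeR quasi-likelihood fit called 32 genes in place of 0, and 0 when genes with an opposite-strand neighbour were also left out, an alternative added after the data were seen. Without its most abundant gene, the H2B sum with siPRMT6-2 was 2.03 times siNC, and the H3 sum 2.17 times siPRMT6-1. Without genes sharing a coding sequence, the H4 sum of siPRMT6-2 was 0.699 times siNC and 0.976 times siPRMT6-1, where it had been 1.25 times. With library totals alone, all types summed to 1.32 times siPRMT6-1 in siPRMT6-2. With a prior count of 0.5, 4 histone genes were 2-fold lower with siPRMT6-1 in place of 2. The cause was not tested, beyond the genes left out. The median log2 difference of the histone genes ran from −0.21 to 0.21 as each knockdown library was left out. Leaving out a knockdown library leaves 1 against 1, so gene calls have no value there. No paired analysis was possible because the control has 1 library. Depth limits genes of few counts: 49 of the 60 with a count were tested.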
